A study of Mus musculus with 4 samples.

Results

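The genes described here are 9 regulators of the meiotic cell cycle: the A-type cyclin genes Ccna1 and Ccna2, the E-type cyclin genes Ccne1 and Ccne2, the kinase genes Cdk2 and Plk1, the phosphatase gene Cdc25c, the chaperone gene Hspa2 and Ccnb1ip1, the gene of a ubiquitin ligase of the crossover pathway. They were chosen by name, with earlier results of these data known. All 9 were found among the 22367 protein-coding genes annotated on 21 chromosomes of mm9. H3K36me3 was measured by ChIP-seq in spermatocytes of C57BL/6J mice, called B6, and of a knock-in strain, B6.Cg-Prdm9<tm1.1Kpgn>/Kpgn, called KI. The knock-in has the B6 genome but for the last exon of Prdm9, which encodes the zinc fingers and comes from the CAST/EiJ allele. The ChIP samples came from germ cells at 14 days post-partum, and the input of each strain, which served as control in peak calling, is labelled 15 days post-partum.

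Replicates of a strain had been merged before peaks were called, so each strain has 1 list of broad regions and 1 list of narrow (refined) peaks. The values that follow have no error between replicates, and no difference between the strains could be tested. The lists give positions only, with no height, score or read number, and they show where enrichment was called but not how strong it was. The depth behind a single region is therefore unknown. Below, unmarked means that no broad region was called, which does not show that the mark was absent. The study's methods give more aligned reads for KI than for B6. The lists held 58502 (B6) and 72692 (KI) refined peaks, and the merged broad regions covered 446 Mb and 425 Mb. In a mixed cell sample, fewer marked cells and less of the mark per cell cannot be told apart.

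H3K36me3 is laid down over the bodies of transcribed genes by SETD2, which travels with elongating RNA polymerase II, and it is usually low at active promoters. In spermatocytes, PRDM9 adds the same mark on nucleosomes at recombination hotspots. Progress through meiotic prophase and into the first division depends on cyclins that bind cyclin-dependent kinases, on CDC25 phosphatases that remove inhibitory phosphates from these kinases, and on polo-like kinase 1, which acts in the same switch.

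Broad regions covered most of 8 of the 9 genes in both strains, and Ccna1 had no covered base in either. Coverage is the share of the annotated gene length that lies in merged broad regions. The 8 genes were covered to at least 50% in each strain, a limit that 43.0% of all protein-coding genes passed in B6, 41.2% in KI and 39.9% in both. Of these 8, 7 were covered to at least 85% in both strains. The share of all protein-coding genes at that limit in both strains was not taken. In B6, 4.27%, 7.94% and 18.5% of all protein-coding genes fell in the classes of 85 to 90%, 90 to 95% and 95 to 100%. In KI these classes held 4.31%, 8.08% and 15.5%. The median coverage of the 9 genes was 92.1% in B6 and 93.6% in KI, beside 21.5% and 18.4% over all protein-coding genes. Among the 8233 protein-coding genes of 2759 to 18537 bp, the range of lengths of the 9 genes, 42.6% passed the limit in both strains and the median coverage was 32.3% in B6 and 30.4% in KI.

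**Figure D1:**
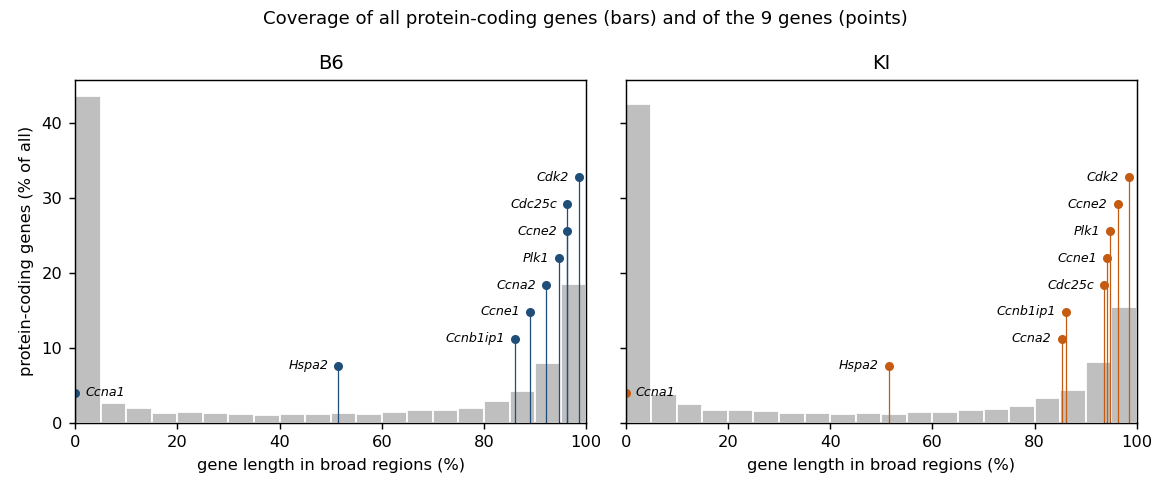
Bars give the percentage of the 22367 protein-coding genes in each 5-point class of coverage by H3K36me3 broad regions (x axis, percent of gene length) in B6 and KI, and points mark the 9 genes at their own coverage (the height of a point only separates the names). Most genes lie near either end of the axis. Ccna1 lies at 0, Hspa2 at 51.5%, and the other 7 genes above 85%.

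The coverage of these genes differed little between B6 and KI. It was equal in both strains for Ccne2, Cdk2, Plk1, Hspa2 and Ccnb1ip1, 5 of the 8 covered genes. It was higher in B6 for Ccna2 and Cdc25c and higher in KI for Ccne1, and the largest difference, KI minus B6, was -6.86 percentage points at Ccna2. Over the 8919 genes covered to at least 50% in both strains, the difference (KI minus B6) had a median of 0 and an interquartile range of -3.93 to 0. The broad regions were called in steps of 500 bp, and the covered parts of Ccna2, Ccne1 and Cdc25c each differed by 1 step.

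The A-type cyclin genes differed, with Ccna2 covered in both strains and Ccna1 in neither. Cyclin A1 is largely restricted to germ cells and is required in males for entry into the first meiotic division, whereas cyclin A2 is the A-type cyclin of dividing cells in general. Ccna1 (ENSMUSG00000027793.2) spans 9587 bp on the reverse strand of mm9, chr3:54849391-54858977, with 9 exons. It had no broad region and no refined peak in B6 and none in KI. Having no covered base in either strain was common, with 34.0% of all protein-coding genes and 37.8% of those in the length range of the 9 genes.

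The unmarked stretch that holds Ccna1 was long. In B6 it ran over 185500 bp, and in KI over 90000 bp. The nearest broad region of B6 lay 61.5 kb beyond the 5′ end of Ccna1 and reached Spg20, the nearest protein-coding gene on that side, which was covered to 82.3% in both strains. In KI a broad region of 5500 bp (chr3:54871501-54877000) lay 12523 bp beyond the 5′ end, with a refined peak of 1350 bp (chr3:54874917-54876266), at a place with no B6 region of either kind. On the other side, the nearest broad region lay 114.4 kb from the 3′ end in B6 and 67.9 kb in KI.

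Ccna2 (ENSMUSG00000027715.3), also on the reverse strand, spans 7285 bp at chr3:36463788-36471072. Its coverage was 92.1% in B6 and 85.3% in KI. The covered part began 572 bp after the 5′ end in B6 and 1072 bp after it in KI and ran through the 3′ end. The region was 19 kb long in B6 and 18 kb in KI and went on over Exosc9, a gene of the opposite strand whose annotated span overlaps that of Ccna2 at the 3′ side. Of Exosc9, 100% was covered by it in B6 and 96.4% in KI. The lists do not say which of both genes the marked chromatin belongs to.

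The sequences before the 5′ ends of both A-type cyclin genes are shown because neither lies in a called broad region in either strain. The gene that follows is covered in Ccna2 and has no covered base in Ccna1. Each is the 250 bases before the first annotated base, read from the mm9 genome (NCBIM37) in the direction of transcription, at chr3:54858978-54859227 (reverse strand) for Ccna1 and chr3:36471073-36471322 (reverse strand) for Ccna2. Capitals mark matches on either strand to CCAAT, to GGGCGG (the GC box) or to TTTGAA (the core of the cell cycle genes homology region).
Ccna1: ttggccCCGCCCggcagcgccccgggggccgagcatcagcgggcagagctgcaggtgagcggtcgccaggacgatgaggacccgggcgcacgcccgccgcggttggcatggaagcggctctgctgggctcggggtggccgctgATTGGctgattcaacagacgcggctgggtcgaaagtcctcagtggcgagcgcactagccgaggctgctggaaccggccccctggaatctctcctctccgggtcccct
Ccna2: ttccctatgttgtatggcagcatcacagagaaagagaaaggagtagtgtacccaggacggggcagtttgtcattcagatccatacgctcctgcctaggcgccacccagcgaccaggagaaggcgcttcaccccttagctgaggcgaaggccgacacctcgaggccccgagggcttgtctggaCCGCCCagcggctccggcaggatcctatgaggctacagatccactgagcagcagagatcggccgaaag

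The Ccna1 window held 71.2% G or C and 26 CpG dinucleotides, and the Ccna2 window 59.6% and 14, beside medians of 54% (interquartile range 46% to 62.8%) and 8 (3 to 18) over the windows of 22362 protein-coding genes. The Ccna1 window lay above both ranges and the Ccna2 window within both. A GC box was found in the windows of 8 of the 9 genes, all but Ccnb1ip1, and in 39.6% of all windows. CCAAT was found in 6 of the 9 and in 35.0% of all windows. TTTGAA was found in 1 of the 9, that of Cdc25c, and in 14.8% of all windows. A match is a run of letters and not a binding site.

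The E-type cyclins, which pair with CDK2, were both covered. Ccne1 (ENSMUSG00000002068.10) spans 9551 bp on the reverse strand at chr7:38883003-38892553 and had a coverage of 89.0% in B6 and 94.2% in KI. Its region began 1053 bp after the 5′ end in B6 and 553 bp after it in KI, and ended at the same base in both strains, 3002 bp past the 3′ end. This region, of 11.5 kb in B6 and 12 kb in KI, reached no other annotated gene.

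Ccne2 (ENSMUSG00000028212.10) spans 13429 bp on the forward strand at chr4:11118498-11131926. Coverage was 96.3% in both strains, from 503 bp after the 5′ end. The region was 62 kb long with the same ends in both strains and passed the 3′ end of Ccne2 by 49074 bp. It covered 99.3% of Ints8, a gene of the opposite strand of 55101 bp that overlaps the 3′ part of Ccne2. As at Ccna2, the lists do not say which of both genes the marked chromatin belongs to. Ccne2 was the only covered gene of the set with no refined peak in either strain. The nearest refined peaks lay 21.2 kb from it in B6 and 25.8 kb in KI, both beyond its 5′ end, and the nearest ones on its own region lay 34.2 kb and 34.5 kb past its 3′ end.

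Both kinase genes had the same coverage in B6 and KI. CDK2 is the partner of the A- and E-type cyclins and is found at crossover sites and telomeres in spermatocytes. Cdk2 (ENSMUSG00000025358.9) spans 7113 bp on the reverse strand at chr10:128134995-128142107, and 98.5% of it was covered in both strains by a region of 8.5 kb with the same ends. That value was above the coverage of 92.4% of all protein-coding genes in B6 and 93.7% in KI. The region began 107 bp after the 5′ end, the shortest distance among the 8 covered genes, and no other gene was reached by it.

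PLK1 acts in the entry into and the passage through the divisions. Plk1 (ENSMUSG00000030867.6) spans 10439 bp on the forward strand at chr7:129302951-129313389 and was covered to 94.7% in both strains. Its region of 12 kb had the same ends in B6 and KI, from 550 bp after the 5′ end to 2111 bp past the 3′ end, where it covered 12.8% of the convergent gene Ern2.

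CDC25C activates the CDK1 and cyclin B kinase at the start of division. Cdc25c (ENSMUSG00000044201.9), the longest of the 9 genes, spans 18537 bp on the reverse strand at chr18:34892651-34911187. It was covered to 96.3% in B6, from 687 bp after the 5′ end, and to 93.6% in KI, from 1187 bp after it. The region ended 1650 bp past the 3′ end in both strains and contained Gm3550, a gene of 645 bp of the opposite strand inside Cdc25c. In KI the merged region consisted of 3 listed broad regions, whereas in B6 it was 1.

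Hspa2 and Ccnb1ip1 stand for the late steps of prophase. HSPA2 is a testis-enriched HSP70 chaperone needed for the CDK1 and cyclin B complex and for the disassembly of the synaptonemal complex. Hspa2 (ENSMUSG00000059970.6), the shortest of the 9 genes, spans 2759 bp on the forward strand at chr12:77505163-77507921 and was covered to 51.5% in both strains. The covered part began 1338 bp after the 5′ end, ran through the 3′ end and went on for 4579 bp into sequence with no annotated gene. The distance of 1338 bp was the longest among the 8 covered genes, where it ranged from 107 bp upward. The part of gene length in the coverage of Hspa2 was not tested, and its value lies just above the limit of 50%. With a limit of 75%, 7 of the 9 genes passed in both strains, without Hspa2, beside 32.3% of all protein-coding genes. With a limit of 25%, 8 passed, beside 45.6%.

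CCNB1IP1 (HEI10) is required for crossovers to mature. Ccnb1ip1 (ENSMUSG00000071470.3) spans 6480 bp on the reverse strand at chr14:51408924-51415403. It was covered to 86.1% in both strains, from 903 bp after the 5′ end. The region ended 1923 bp past the 3′ end in B6 and 1423 bp past it in KI, a difference of 1 step. The window before its 5′ end (chr14:51415404-51415653, reverse strand) is shown as the one of the 9 with the fewest CpG dinucleotides (7), 48.8% G or C and no match to the motifs named above.
Ccnb1ip1: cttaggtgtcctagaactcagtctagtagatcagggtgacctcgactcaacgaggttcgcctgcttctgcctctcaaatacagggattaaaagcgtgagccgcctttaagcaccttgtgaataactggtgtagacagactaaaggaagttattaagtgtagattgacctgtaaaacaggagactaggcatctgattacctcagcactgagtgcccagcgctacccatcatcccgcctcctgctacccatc

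**Figure D2:**
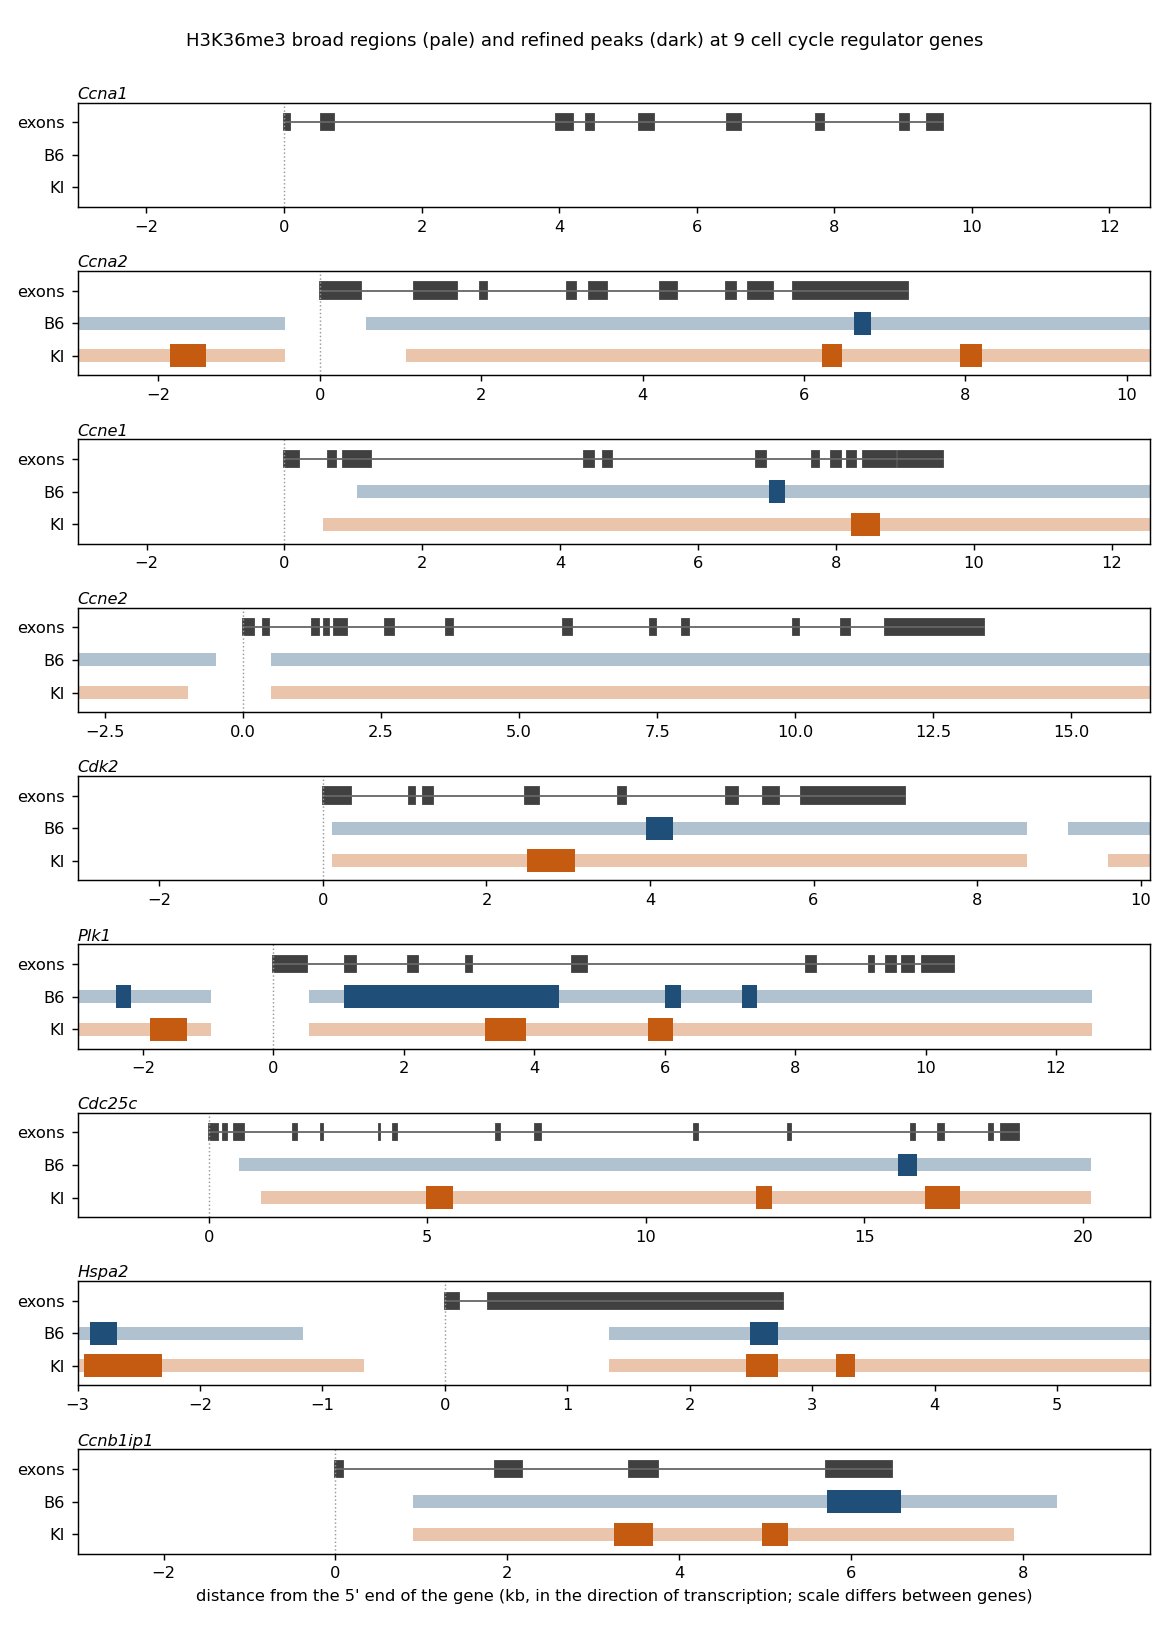
Each panel draws 1 gene by distance from its 5′ end in kb (x axis, in the direction of transcription, with its own scale), with exons on top, broad regions as pale bars and refined peaks as dark boxes for B6 and KI. Ccna1 is empty in both strains. In the other 8 genes the broad region begins after the 5′ end in both strains and passes the 3′ end.

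The 5′ end itself was unmarked in all 9 genes in both strains. This did not hold when regions within 1000 bp of each other were merged. Ccna2 and Ccne2 were then covered to 100% in B6, the 5′ end included. In the 8 covered genes the first covered base lay 107 to 1338 bp after the 5′ end, with a median of 629.5 bp in B6 and 728 bp in KI. Over the 8919 genes covered to at least 50% in both strains, the medians were 907 bp in B6 and 973 bp in KI, and the first base lay in no broad region in 88.6% of them in B6 and 89.0% in KI. The 250 bases before the 5′ end held no covered base in any of the 9 genes, as was so for 86.2% of the covered genes in B6 and 86.6% in KI. The unmarked 5′ end was therefore usual among covered genes and not particular to these.

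The first covered base was the same in both strains in 5 of the 8 genes (Ccne2, Cdk2, Plk1, Hspa2 and Ccnb1ip1), beside 52.4% of the covered genes at large. In Ccna2, Ccne1 and Cdc25c it differed by 500 bp, 1 step of the peak caller. Coverage reached the last base of each of the 8 genes in both strains, as it did in 94.6% of the covered genes in B6 and 93.2% in KI.

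The unmarked stretch at the 5′ end varied more than the covered part. It measured 1000 bp in B6 and 1500 bp in KI at Ccna2, where a broad region ended 429 bp before the 5′ end and Bbs7, on the same strand, lay 992 bp upstream. At Ccne2 it measured likewise 1000 bp and 1500 bp, with the nearest upstream gene, Trp53inp1, 16972 bp away. It was 1500 bp in both strains at Plk1, and 2500 bp in B6 and 2000 bp in KI at Hspa2. At the other covered genes it was wider, with 12000 bp and 13000 bp at Cdk2, 14000 bp in both strains at Ccnb1ip1 and 5000 bp and 10000 bp at Cdc25c. A near neighbour did not always go with a narrow stretch, since Pmel lay 1207 bp upstream of Cdk2. Pmel was itself covered to 23.6% in B6 and 16.4% in KI. Bbs7 was covered to 96.5% and 91.6%, and Trp53inp1 to 97.6% in both strains. Long noncoding RNA genes lay 36 bp upstream of Plk1, 276 bp upstream of Cdc25c and 522 bp upstream of Hspa2. At Ccne1 the unmarked stretch spanned 111500 bp in B6 but 8500 bp in KI, where a broad region ended 7948 bp before the 5′ end. Over the covered genes with an unmarked 5′ end the median was 9500 bp in both strains.

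**Figure D3:**
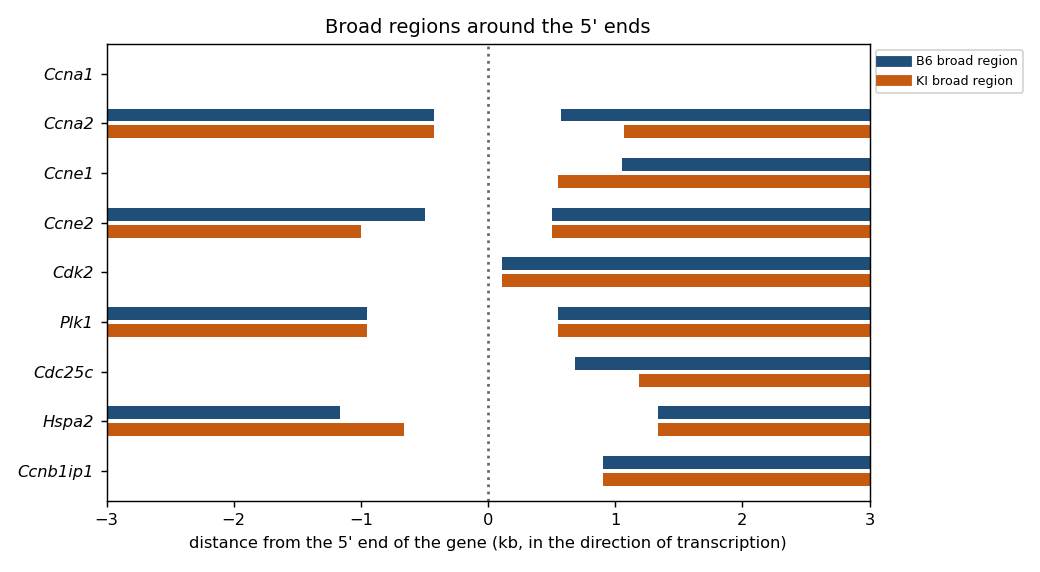
Bars show H3K36me3 broad regions of B6 and KI within 3 kb of the 5′ end of each of the 9 genes (x axis, kb in the direction of transcription). No bar crosses 0. At Ccna2, Ccne2, Plk1 and Hspa2 an upstream region comes within 1163 bp of the 5′ end in both strains, and Ccna1 has no bar.

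Refined peaks, the narrow peaks of the lists, numbered 9 in the 9 genes in B6 and 11 in KI. Of the 9 genes, 7 had at least 1 in both strains, and Ccna1 and Ccne2 had none. Of all protein-coding genes, 52.7% had a refined peak in B6 and 54.9% in KI, and of those in the length range of the 9 genes that were covered to at least 50% in both strains, 81.4% and 83.3%. Per Mb of gene, the 8 covered genes held 119 (B6) and 146 (KI), and the 3505 covered genes of that length range held 102 and 114.

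The broad regions of the 8 covered genes were nearly the same in both strains, so a refined peak there was almost bound to meet one of the other strain. All 20 refined peaks lay on a broad region of the other strain. Such an overlap with a region of either kind was found in genes covered to at least 50% in both strains for 84.1% of peaks called in B6 and 95.8% of those called in KI, and in protein-coding genes at large for 62.6% and 80.8%. The refined peaks of the strains were then set against each other. A refined peak of the other strain was overlapped by 3 of the 9 B6 peaks, a share of 33.3% (exact 95% binomial interval 7.49% to 70.1%), and by 3 of the 11 KI peaks, a share of 27.3% (6.02% to 61.0%). In genes covered to at least 50% in both strains the shares were 23.2% and 15.8%, and in protein-coding genes at large 19.0% and 15.9%. The intervals cover counting error only, treat each peak as independent and hold no error between replicates. The same 3 overlapping pairs, which lay in Plk1 and Hspa2, were counted from both strains. The intervals therefore cannot decide whether these shares differ from those of other genes. When peaks within 500 bp of each other counted as shared, the numbers were 6 of 9 in B6 and 6 of 11 in KI.

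The 3 overlapping pairs lay in Plk1 and Hspa2. Plk1 had 3 refined peaks in B6, but 2 in KI. The first in B6 (chr7:129304035-129307331) was 3297 bp wide, the widest in the set, and contained a KI peak of 622 bp (chr7:129306203-129306824) whole, in an intron. The next in B6 (chr7:129308950-129309208) shared 136 bp with a KI peak of 395 bp (chr7:129308691-129309085), again in an intron. The last in B6 (chr7:129310134-129310367) lay 1048 bp from the nearest KI peak.

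The second B6 peak of Plk1 is shown because both strains called a peak on part of it. It is given whole, on the forward strand of mm9, with the 136 bases shared with the KI peak in capitals. It held 38.6% G or C and 1 CpG dinucleotide.
Plk1 B6 peak: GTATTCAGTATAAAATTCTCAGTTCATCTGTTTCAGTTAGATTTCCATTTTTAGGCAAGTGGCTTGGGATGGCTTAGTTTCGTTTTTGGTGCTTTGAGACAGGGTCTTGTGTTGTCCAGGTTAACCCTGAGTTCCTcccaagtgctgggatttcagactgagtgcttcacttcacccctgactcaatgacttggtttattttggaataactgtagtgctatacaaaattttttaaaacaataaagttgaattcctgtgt

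In Hspa2 the peaks of both strains ended at the same base. The B6 peak of 226 bp (chr12:77507655-77507880) lay wholly within the KI peak of 260 bp (chr12:77507621-77507880), in the untranslated part of the last exon. A further KI peak lay past the 3′ end of the gene on the same broad region.

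In Ccna2, Ccne1, Cdk2, Cdc25c and Ccnb1ip1 no refined peak was shared. In Ccna2 the single peaks of B6 (chr3:36464240-36464452, 213 bp) and KI (chr3:36464606-36464846, 241 bp) both lay in untranslated bases of the last exon, 153 bp apart. The B6 peak lay inside the overlap with Exosc9, whereas most of the KI peak lay outside it. In Cdc25c the B6 peak of 438 bp (chr18:34894976-34895413) lay 186 bp from the nearest of 3 KI peaks, which was 800 bp wide (chr18:34893990-34894789). Each of these 2 Cdc25c peaks touched a coding exon. The other 2 KI peaks of Cdc25c lay in introns.

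The distances were larger in the remaining genes. In Ccnb1ip1 the B6 peak of 861 bp (chr14:51408824-51409684) lay at the 3′ end, 450 bp from the nearer of 2 KI peaks (chr14:51410135-51410438, and chr14:51411709-51412155). In Cdk2 the B6 peak of 321 bp (chr10:128137832-128138152) lay in an intron, 874 bp from the KI peak of 583 bp (chr10:128139027-128139609), which touched a coding exon. In Ccne1 the peaks of 239 bp in B6 (chr7:38885293-38885531) and 429 bp in KI (chr7:38883915-38884343) were 949 bp apart.

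A peak called in B6 alone and a peak called in KI alone are shown, both inside genes that are broadly marked in the other strain as well. The Ccne1 peak of B6 is given whole, in the direction of transcription (reverse strand), and is intronic with 40.2% G or C. The Ccnb1ip1 peak of KI is given by its middle 300 bases (chr14:51411783-51412082, reverse strand), with the 199 bases of coding exon in capitals.
Ccne1 B6 peak: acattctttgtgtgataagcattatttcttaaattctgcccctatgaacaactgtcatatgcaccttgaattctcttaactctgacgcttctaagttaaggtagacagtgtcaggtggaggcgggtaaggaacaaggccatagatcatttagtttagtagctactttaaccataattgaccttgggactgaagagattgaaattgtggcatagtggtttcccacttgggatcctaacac
Ccnb1ip1 KI peak: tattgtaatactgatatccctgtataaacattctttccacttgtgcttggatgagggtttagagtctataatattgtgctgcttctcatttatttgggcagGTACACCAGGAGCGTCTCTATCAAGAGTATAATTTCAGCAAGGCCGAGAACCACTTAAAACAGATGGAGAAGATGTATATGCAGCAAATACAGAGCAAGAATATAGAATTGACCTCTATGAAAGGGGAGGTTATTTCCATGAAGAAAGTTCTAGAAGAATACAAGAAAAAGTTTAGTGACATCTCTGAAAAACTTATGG

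Within the genes, refined peaks lay toward the 3′ end. Their midpoints fell beyond the middle of the gene in 8 of 9 cases in B6 and 8 of 11 in KI. That share was not taken over other genes. In Hspa2 the broad region itself began 1338 bp into a gene of 2759 bp, which left little room before the middle. The median midpoint lay at 74.8% of the gene length in B6 and 68.5% in KI, counted from the 5′ end. In covered genes of the same length range the medians were 65.4% (interquartile range 45.0% to 83.0%) in B6 and 62.5% (41.4% to 81.5%) in KI. The lean toward the 3′ end was therefore not particular to these genes. No refined peak began within 1000 bp of a 5′ end in either strain. Exon bases were touched by 5 of the 9 B6 peaks and 6 of the 11 KI peaks, and the other 9 lay in introns. The share of peaks that touch exons was not taken over other genes, so whether these counts are usual is not known. Peak width had a median of 259 bp in B6 and 429 bp in KI, beside 313 bp and 319 bp over the whole lists.

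Other regulators of the cell cycle were mostly covered as well. Of 37 such genes, 30 were covered to at least 50% in B6, 30 in KI and 28 in both, beside the 39.9% of all protein-coding genes given above, and their median coverage was 93.4% in B6 and 92.9% in KI. The B-type cyclin genes, whose products drive entry into division, were covered to 93.4% in both strains (Ccnb1), to 97.4% and 93.8% (Ccnb2) and to 98.8% and 96.4% (Ccnb3). Cdk1, their kinase partner, had a coverage of 95.8% in B6 and 92.7% in KI. The phosphatase genes Cdc25a and Cdc25b were covered to 95.0% and 92.9%, each alike in both strains. CDK7 and cyclin H form the kinase that activates other cyclin-dependent kinases, and coverage was 98.8% and 97.4% for Cdk7 and 98.6% in both strains for Ccnh. Wee1, the gene of a kinase that restrains CDK1, had 96.8% and 94.2%. These values are close to those of the 7 genes above 85%.

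Among the D-type cyclins, which act in G1 with CDK4 and CDK6, Ccnd1 was covered to 82.2% in both strains and Ccnd3 to 16.5% in B6 and 8.59% in KI. Ccnd2 had 51.4% in B6, with 5 refined peaks, and 0 in KI, with none. Cdk6 likewise had 69.0% in B6 and 33.9% in KI, whereas Cdk4 was covered to 90.6% in both. Fbxo43, the gene of an inhibitor of the anaphase-promoting complex needed in meiosis, went the other way, with 0 in B6 and 75.5% in KI. Pkmyt1, the gene of another kinase that restrains CDK1, was covered to 45.2% and 54.8%, on either side of the limit.

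Markers of germ cells were covered in both strains. All 8 such genes (Ddx4, Dazl, Sycp1, Sycp3, Tex14, Mael, Hormad1 and Meiob) were covered to at least 50% in B6 and KI, from 85.8% to 100%. Beside this list and those that follow, 43.0% of all protein-coding genes passed the limit in B6, 41.2% in KI and 39.9% in both. Of 10 markers of somatic testis cells, 2 passed the limit in B6 (Wt1 and Star) and 1 in KI (Star), with a median coverage of 17.7% and 0.920%, and Cyp17a1, Insl3 and Acta2 had no covered base in either. The Sertoli cell genes Wt1, Sox9 and Amh were covered to 71.7%, 45.2% and 42.0% in B6 and to 8.49%, 0 and 0.333% in KI. In Amh the B6 coverage began at the first base and stopped 1393 bp before the 3′ end, with no refined peak. Gata4 (19.6% and 8.25%) and Myh11 (15.9% and 9.17%) were also higher in B6. Star was covered to 100% in both strains, and Cyp11a1 had 0 in B6 and 1.51% in KI. The part of somatic cells in the coverage of Ccnd2 and Cdk6 was not tested. The part of somatic cells in the coverage of the 9 genes was not tested either. Of 6 late spermatid genes, 1 passed in B6 (Acrv1, 100%) and 1 in KI (Prm2, 100%, a gene of 723 bp), and Prm1, Tnp1 and Tnp2 had no covered base. Of 8 genes of tissues other than testis, 1 passed in both strains (Krt10) and 1 more in B6 (Apoa2).

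**Figure D4:**
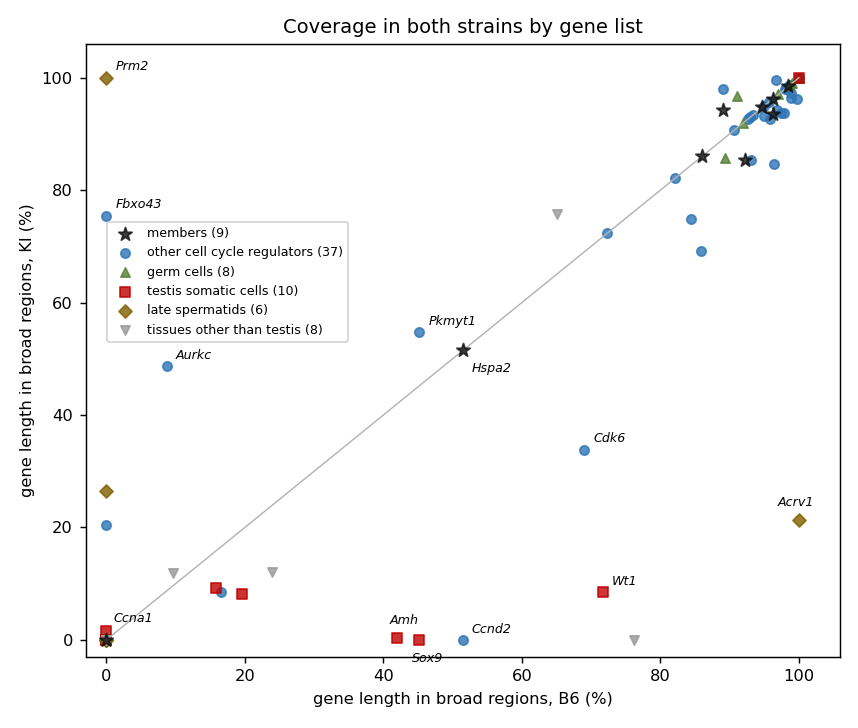
Each point is a gene, at its coverage by H3K36me3 broad regions in B6 (x axis, percent of gene length) and KI (y axis), for the 9 genes described (stars), 37 other cell cycle regulators and 4 lists of cell type markers. The line marks equal coverage. The stars lie on or near it, 7 of them above 85% on both axes, with Hspa2 at 51.5% and Ccna1 at 0.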

How the data were processed

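H3K36me3 ChIP-seq was analysed from the peak lists deposited for B6 and KI. Per the study's methods, the authors kept uniquely mapped reads on mm9 (BWA, 1.2.3 in the submitters' processing notes), pooled each strain's replicates and ran ZINBA with the input as control, with 1000 bp windows offset by 500 bp, a pWinSize of 750 bp and a WinGap of 250 bp. The deposited lists hold 3 columns (chromosome, start and end). Positions were read as counted from 1. Broad regions that overlapped or touched were merged, and gene spans, exons and coding parts came from GENCODE vM1 on the same build. Peaks were called shared at an overlap of at least 1 bp. Regions were handled with numpy 2.4.6 and pandas 2.3.3, intervals came from scipy 1.17.1 (Clopper-Pearson), and sequences were read with pysam 0.24.0. Bedtools 2.31.1 gave the same covered bases for 22367 of 22367 genes in each strain, and the code was tested on simulated regions. With 1 pooled list of each kind per strain no test was run. The genes and lists were chosen with earlier results of these data known. The text names all 9 genes, the cyclins of the other list with the kinases and phosphatases that act with or on them (Cdk1, Cdk4, Cdk6, Cdk7, Wee1, Pkmyt1, Cdc25a and Cdc25b), genes reached by or next to the same regions, and the closest profiles. Fbxo43 was named after its values were seen. Meiob was matched by its older symbol.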

Additional observations from a re-analysis of the deposited data

How the results depend on the processing

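The alternatives were the span of the longest protein-coding transcript, broad regions of at least 3000 bp, merging within 1000 bp, the place and width of peaks, the overlap that counts as shared and limits of 25% and 75%. Coverage and distance were taken as unchanged within 500 bp, and counts within 1.5 times. Of the summary values under these, 21 stayed within those margins and 6 moved. With broad regions of at least 3000 bp alone, the median coverage in KI was 86.1%, since Cdc25c lost the shortest of its KI regions and went to 85.5%. With refined peaks of at least 300 bp alone, 4 of 9 remained in B6 and 9 of 11 in KI. The refined peaks shared with the other strain numbered 6 in B6 and 6 in KI when peaks within 500 bp counted. For that rule no share was taken over other genes. When the broad regions of the other strain counted, the numbers were 9 and 11. In genes covered to at least 50% in both strains, 84.1% of B6 peaks and 95.8% of KI peaks met such a region. With a limit of 75%, 7 genes were covered in both strains, without Hspa2, beside 32.3% of all protein-coding genes. Of the values of single genes, 127 stayed and 13 moved. Among those that moved was the coverage of Ccna2 and Ccne2 in B6, which was 100% with merging within 1000 bp. No paired analysis was possible because each strain has 1 pooled list, and no replicate could be left out. The backgrounds in genes of the members' length range were added after seeing the data. The lists have no heights, so a weaker and an absent mark at Ccna1 cannot be told apart.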

Other observations

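Some further genes of the list of 37 regulators, of which 28 were covered to at least 50% in both strains beside 39.9% of all protein-coding genes, are given by their values. Bub1, Bub1b and Ttk, of the spindle checkpoint, were covered to 98.0%, 98.7% and 98.1%, each alike in B6 and KI. Cdc20, an activator of the anaphase-promoting complex, was covered to 100% in both strains. Mad2l1 had a coverage of 89.1% in B6 and 97.9% in KI. The aurora kinase genes had 99.8% and 96.3% for Aurka, 85.8% and 69.2% for Aurkb, and 8.74% and 48.7% for Aurkc, the aurora kinase of germ cells.

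Cdkn1b and Cdkn2d, genes of inhibitors of cyclin-dependent kinases, had no covered base in either strain, like Ccna1 and 34.0% of all protein-coding genes, and Cdkn1a had 0 in B6 and 20.5% in KI. These genes, and those of the checkpoint and aurora kinases above, were named after their values were seen. Compared over 10 equal bins of the gene in both strains (20 values), the profile of Ccna1 was thus the same as those of Cdkn1b and Cdkn2d. Among the same 37 genes, the closest to Cdk2 was Ccnh (mean absolute difference 0.0722 percentage points), the closest to Plk1 was Cdc25a (0.255) and the closest to Ccna2 was Mybl1 (0.484). Hspa2 had no close match, with 20.7 percentage points to Pkmyt1, the nearest. In covered genes most bins are full, so these values rest on the first bins after the 5′ end.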
